A study of Mus musculus with 30 samples.

Results

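Among the places where the chromatin remodeller Snf2h was called in mutant CH12 cells, 2738 regions were absent from the wild-type list and lay on cohesin sites. A region belonged to this set if it came from the mutant Snf2h list on chromosomes 1 to 19, shared no base with any wild-type Snf2h region, and shared at least 1 base with a region of each of 6 cohesin lists. The 2738 regions were 11.7% of the 23441 mutant regions on these chromosomes. The regions were chosen by the calls themselves, so their absence from wild type and their presence in the cohesin lists are a description and were not tested.

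CH12 is a mouse B lymphoma line. Wild-type cells carried no vector, and the mutant cells carried a homozygous Cas9-made deletion of zinc fingers 9 to 11 of CTCF and no vector either. Cohesin was mapped not in CH12 but in NIH3T3, an immortalized mouse embryonic fibroblast line, with antibodies against SMC1, RAD21 and SMC3. Control NIH3T3 cells stably carried an empty vector that makes beta-galactosidase, and the other NIH3T3 cells stably expressed BORIS (CTCFL) and were a single clone, clone 2. A cohesin site in what follows is therefore a site of fibroblasts, and whether CH12 cells hold cohesin there was not measured in the lists used. Each of the 8 groups had 1 list, so no difference between lines has a replicate check, and no p-value is given.

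Snf2h (Smarca5) is the ATPase of ISWI-type remodellers, which slide nucleosomes along DNA. It is known as the remodeller that places the regular nucleosome array on either side of bound CTCF and helps CTCF to bind. Cohesin is a ring complex that extrudes DNA loops. It is known to pile up where it meets bound CTCF, so strong cohesin sites are mostly CTCF sites in mammalian cells. Zinc fingers 9 to 11 of CTCF touch DNA beside the core motif. BORIS is a testis-specific relative of CTCF with a similar zinc finger array.

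The 2 Snf2h lists differed in length and in background. The lowest background rate among 500 summits, divided by the width of the narrowest region, was 20.6 fragments per kb in wild type and 13.8 in the mutant. How far this follows sequencing depth is unknown, since the control and scaling are not given in the sources used here. The narrowest region was 163 bp in wild type and 187 bp in the mutant. The mutant list was the longer one, and 56.3% of its regions shared no base with wild type, against 38.4% of the 16793 wild-type regions that shared none with the mutant. The 6 cohesin lists held between 80268 and 105041 regions on chromosomes 1 to 19. The part of depth in the results below was not tested.

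Pooled over weak and strong calls, mutant-only regions fell on cohesin sites about as often as regions that both lines had. Of 13206 mutant-only regions, 20.7% (95% interval 20.0 to 21.4) were in all 6 cohesin lists, and of 10235 mutant regions shared with wild type 21.1% (20.3 to 21.9) were. Over all mutant regions this share was 20.9%. Wild-type-only regions were on such sites more often, at 28.1% (27.0 to 29.2) of 6446, and the intervals, which cover counting error only, did not overlap. Few mutant-only regions were in between, since 64.7% were in no cohesin list and the 1921 regions in 1 to 5 lists made up the rest. The intermediate classes held from 308 regions (3 lists) to 506 regions (1 list).

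The ratio of mutant-only to wild-type-only regions was lower at cohesin sites than elsewhere, and whether it was above 1 there turned on the length of the mutant list. At all 6 lists there were 2738 mutant-only and 1809 wild-type-only regions, a ratio of 1.51 (1.43 to 1.61). Among regions in no cohesin list there were 8547 and 3907, a ratio of 2.19 (2.11 to 2.27), and among regions in 1 to 5 lists 1921 and 730, a ratio of 2.63 (2.42 to 2.87). The order of the first pair stayed the same when only regions whose −log10 q reached 10 were counted. There the ratio was 2.81 (1.90 to 4.23) at cohesin sites, from 101 and 36 regions, and 8.58 (6.78 to 11.0) away from cohesin, from 669 and 78 regions. With only as many mutant regions, the strongest, as the wild-type list holds, the direction at cohesin sites turned, with 1564 mutant-only and 2167 wild-type-only regions and a ratio of 0.722 (0.676 to 0.771). In no cohesin list the ratio was then 1.12 (1.07 to 1.16), and over all regions 1.02 (0.986 to 1.05).

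The mutant-only regions at cohesin sites were weak calls. Their median fold, the pileup of fragments at the summit over the local background as the authors' peak caller gave it, was 3.64 (quartiles 3.28 and 4.08). The median pileup recovered from fold and p-value was 20 fragments, with a 90th percentile of 29 and a range of 10 to 371. The local background had a median of 4.79 and a maximum of 272, so a high pileup alone does not make a strong call. The median −log10 q was 4.40, and the lowest was 1.55 where the list as a whole reached 1.35. By −log10 p the regions had a median percentile of 33.8 within the mutant list. Only 9 of them (0.329%) were in the strongest 10% of the list, and 28.1% were above its median. Mutant regions shared with wild type at cohesin sites had a median fold of 4.19 and a median percentile of 63.4, and mutant-only regions away from cohesin had 3.69 and 38.2. Of mutant-only regions, the share on all 6 cohesin lists was 22.2% (20.8 to 23.5) in the weakest quintile of the mutant list and 12.0% (9.64 to 14.6) in the strongest. The whole mutant list went the same way, with 22.9% (21.7 to 24.1) of all its regions on these lists in the weakest quintile and 14.9% (13.9 to 15.9) in the strongest. In each quintile the mutant-only share was below that of all regions, so regions shared with wild type had the higher share. In the fourth quintile it was 17.2% (15.6 to 18.8) against 20.2% (19.1 to 21.4) of all regions, and in the other quintiles the intervals overlapped. Wild-type-only regions had 26.9% in the weakest and 26.6% (20.9 to 32.9) in the strongest quintile of the wild-type list.

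The strongest region was on chromosome 4 from 132612644 to 132612929, with coordinates of mm9, a build that the submitters' processing notes name. Its Snf2h fold was 7.63, from 61 fragments over a background of 7.12, and it ranked at percentile 95.5. It was also a strong cohesin site. In empty-vector cells the SMC1 fold was 44.5, the RAD21 fold 54.2 and the SMC3 fold 42.1. In BORIS cells they were 26.2, 42.7 and 35.5 in the same order. All 6 values were at or above percentile 93.7 of their lists. The nearest wild-type Snf2h region was 32.7 kb away.

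The other 5 of the strongest 6 were on weaker cohesin sites. On chromosome 7 from 25247563 to 25247977 the Snf2h fold was 7.0 (pileup 47), while the cohesin percentiles ran from 27.6 to 58.4. On chromosome 8 from 124456864 to 124457253 the fold was 6.47 (pileup 50) and the lowest cohesin percentile was 32.9. The region on chromosome 11 from 71891400 to 71891928 had the highest fold of the set, 7.76 (pileup 40), and the lowest cohesin percentile of these 6, at 25.2. On chromosome 14 from 55255778 to 55256103 the fold was 6.18 (pileup 49), and each antibody gave cohesin a lower rank in BORIS cells, as RAD21 did at percentile 46.6 against 67.2. The last, on chromosome 7 from 52782243 to 52782510, had a fold of 5.60 (pileup 49) and a lowest cohesin percentile of 54.0. Strong Snf2h calls were thus found on cohesin sites of low to high rank.

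**Figure D1:**
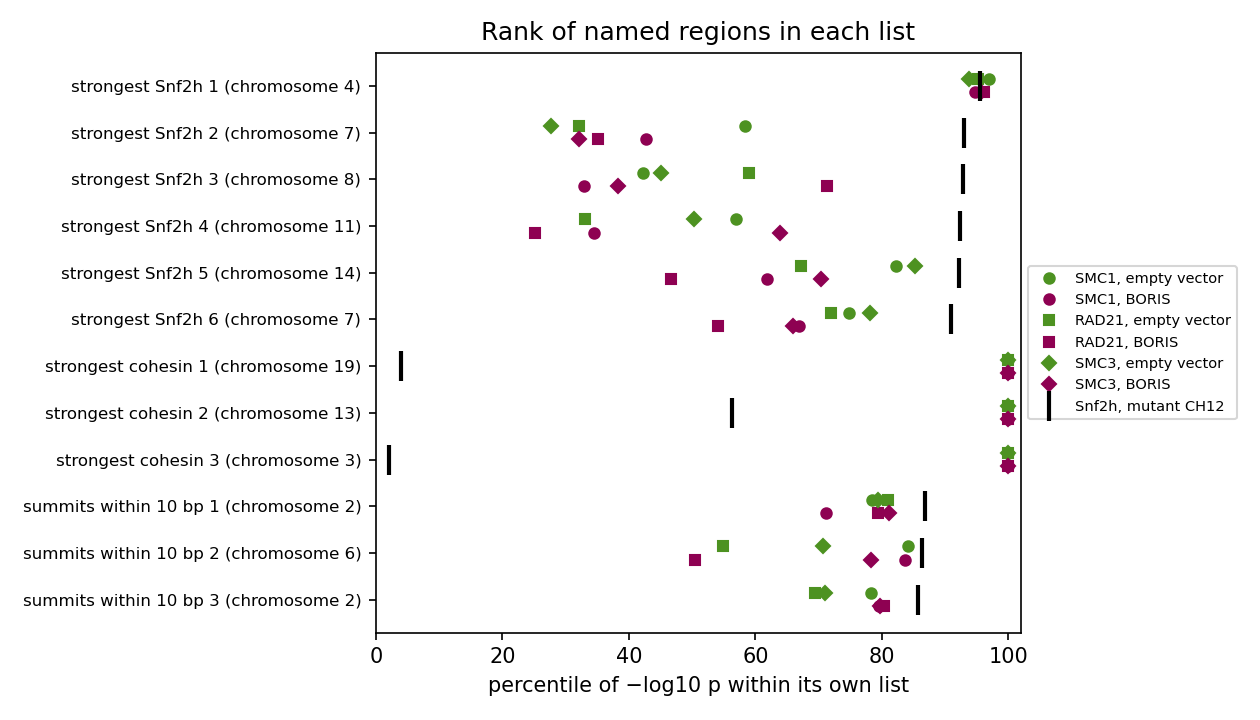
Percentile of −log10 p within its own list for 12 named regions, in the mutant Snf2h list (black bars) and in the 6 cohesin lists (circles SMC1, squares RAD21, diamonds SMC3, with empty-vector cells in green and BORIS cells in purple). The first region is at or above percentile 93.7 in each cohesin list, whereas the next 5 spread down to 25.2, and the 3 regions on the strongest cohesin sites lie at Snf2h percentiles of 2.13 to 56.3.

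The 3 regions whose lowest cohesin percentile was highest are given next. The first lay on chromosome 19 from 5002202 to 5002388. In empty-vector cells the SMC1 fold was 70.0, the RAD21 fold 77.6 and the SMC3 fold 74.1, and in BORIS cells they were 60.3, 75.3 and 72.2. Its Snf2h fold was 3.35 with 13 fragments, percentile 3.96 of the mutant list. The next, on chromosome 13 from 31893242 to 31893428, had RAD21 folds of 94.4 and 79.7 in empty-vector and BORIS cells and a Snf2h fold of 4.64 with 19 fragments, at percentile 56.3. The third, on chromosome 3 from 104795682 to 104795967, had RAD21 folds of 64.3 and 58.5 and a Snf2h fold of 3.12 with 14 fragments, at percentile 2.13. Over all 2738 regions the rank of Snf2h and the lowest rank of cohesin had a Spearman rho of −0.064, a description across regions of the same lists.

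As a group, the regions lay on strong cohesin sites. In empty-vector cells the median percentile reached 84.2 with SMC1, 79.8 with RAD21 and 83.1 with SMC3, and in BORIS cells 83.2, 78.5 and 84.6. The lowest of a region's 6 percentiles had a median of 71.7 (quartiles 38.9 and 87.7). It was 90 or more in 556 regions (20.3%) and under 10 in 219 (8.0%). These shares were 21.3% and 7.72% in shared mutant regions on all 6 lists, and 22.0% and 3.59% in wild-type-only regions on all 6. The rule asks for a call in every list and so removes weak cohesin regions. Under the same rule for cohesin, the median was 72.2 where both lines had Snf2h and 77.0 where only wild type had it (95% interval 75.8 to 78.2, against 70.0 to 73.6 for the mutant-only regions).

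Counted by cohesin site, mutant-only regions were again more frequent at strong sites. Joining overlapping or touching regions of the 6 lists gave 50858 sites called in all 6, and 2708 of them (5.32%) held a mutant-only Snf2h region. When the sites were ordered by their lowest percentile, 3.17% (2.70 to 3.68) of the weakest decile held one and 11.0% (10.1 to 11.9) of the strongest decile. Strong sites were wider, with a median of 669 bp in the strongest decile and 420 bp in the weakest. Per Mb of site the count still went from 66.7 to 146. Sites with a wild-type-only region went from 1.04% (0.782 to 1.36) to 7.67% (6.95 to 8.43). In percentage points the rise was smaller for these sites, although as a multiple of the weakest decile it was larger. The ratio of sites with mutant-only to sites with wild-type-only regions was 3.04 (2.21 to 4.23) in the weakest decile and 1.43 (1.25 to 1.63) in the strongest, with the lowest value, 1.19 (0.992 to 1.43), in the seventh decile. With lists of equal length the ratio was 1.41 (1.01 to 1.98) in the weakest decile and 0.613 (0.530 to 0.709) in the strongest, so it was higher at weak cohesin sites under both settings. At equal length, mutant-only regions were the more numerous in only the weakest 3 deciles. The ratios of the second, 1.11 (0.814 to 1.52), and the third, 1.24 (0.927 to 1.66), had intervals that included 1. These ratios rest on 1 list per line.

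**Figure D2:**
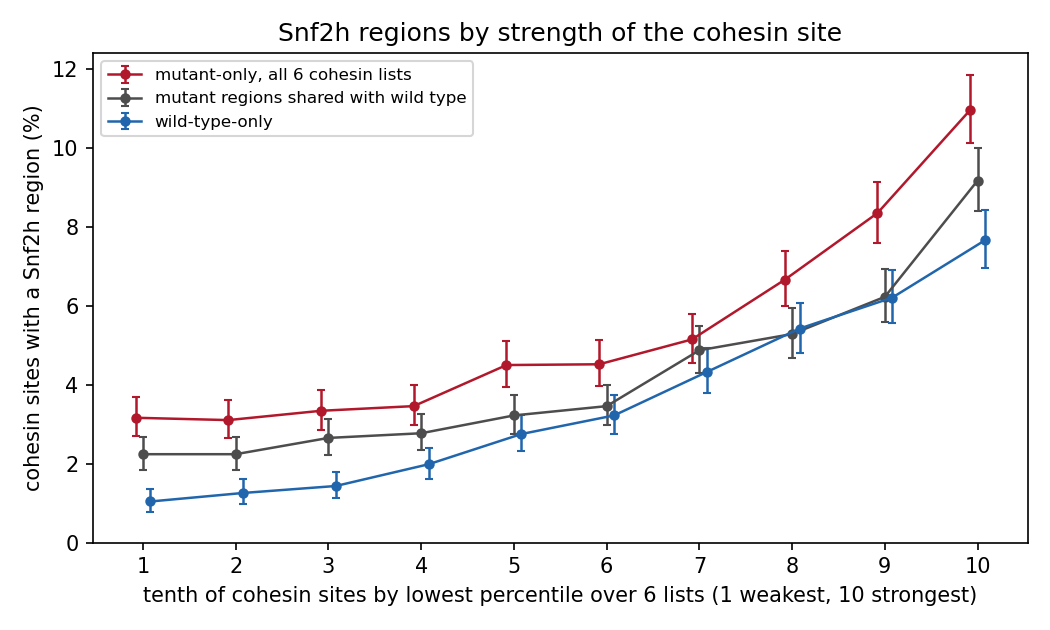
Share of cohesin sites (in %) that held a Snf2h region, by decile of the 50858 sites ordered by their lowest percentile over the 6 lists, for mutant-only regions (red), mutant regions shared with wild type (grey) and wild-type-only regions (blue). Bars are exact 95% binomial intervals, and the red points rise from 3.17% to 11.0% while the blue points rise from 1.04% to 7.67%.

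Snf2h summits lay beside the cohesin summits more often than on them. The cohesin summit of a region was taken as the median of the summits in the 6 lists, whose positions spread over a median of 36 bp. The Snf2h summit was at a median of 82.8 bp (95% interval 79.5 to 85.5) from it, with quartiles of 43.5 and 139 bp. Against the summits of single lists the median was between 83 and 85 bp. In bins of 20 bp, the share of regions rose from 10.5% (9.39 to 11.7) in the 20 bp next to the cohesin summit to 13.0% (11.8 to 14.4) at 60 to 80 bp, and then fell to 4.78% (4.02 to 5.65) at 140 to 160 bp. Within 50 bp lay 28.6% of the regions, within 100 bp 60.4% and within 200 bp 85.9%. The rule, which asks that the regions overlap, limits this distance. The Snf2h region contained the cohesin summit in 73.2% of cases, and the cohesin summit was at the higher coordinate in 1425 of the 2731 regions with unequal positions (52.2%, 50.3 to 54.1).

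Over weak and strong calls together, the offset was much the same in regions that both lines shared and shorter in wild type. Shared mutant regions at cohesin sites had a median offset of 87 bp (84 to 90.5), an interval that overlaps that of the mutant-only regions. Wild-type-only regions had 65.5 bp (63 to 68), with the most filled bin at 40 to 60 bp (17.0%). Wild-type regions shared with the mutant had 76 bp (71.5 to 79), so summits of the wild-type list were nearer to cohesin at shared places as well. The lists also differed in their narrowest region, 163 bp in wild type and 187 bp in the mutant, and its part in the offset was not tested. Where the 6 cohesin summits lay within 50 bp of each other, the median was 75.5 bp (73 to 79) for the 1706 mutant-only regions and 63 bp for wild-type-only regions.

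**Figure D3:**
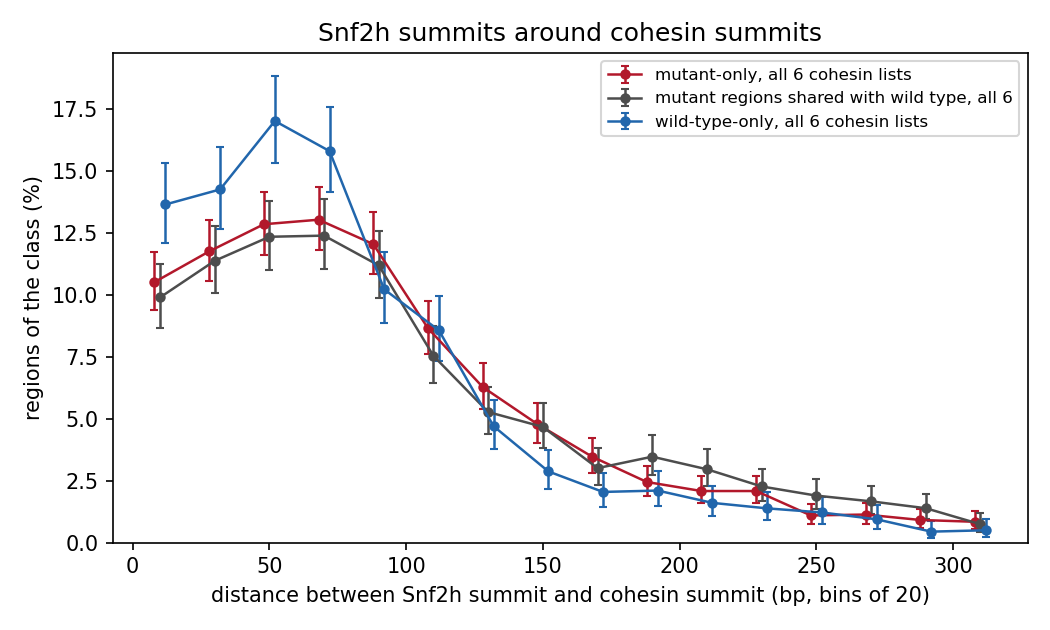
Distance in bp between the Snf2h summit and the cohesin summit, in bins of 20 bp, as a percentage of each class of regions on all 6 cohesin lists, with exact 95% binomial intervals. Mutant-only (red) and shared mutant regions (grey) run close together with a broad maximum around 60 to 80 bp, at 13.0% for the mutant-only regions, and wild-type-only regions (blue) reach 17.0% at 40 to 60 bp.

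Some regions had both summits at one place. Of the 2738 regions, 154 (5.62%, 4.79 to 6.55) had an offset of at most 10 bp. The share was 4.53% (3.70 to 5.50) in shared mutant regions and 7.08% (5.94 to 8.36) in wild-type-only regions at cohesin sites. The strongest of the 154 was on chromosome 2 from 164619837 to 164620124, with a Snf2h fold of 6.52 (pileup 31) and an offset of 7 bp. The second, on chromosome 6 from 40275241 to 40275709, had a fold of 5.90 (pileup 34) and an offset of 3.5 bp, although its cohesin summits spread over 205 bp. The third, on chromosome 2 from 180521523 to 180521892, had a fold of 7.20 (pileup 26) and an offset of 2 bp. In each of these 3 regions all cohesin percentiles were above 50.

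At the 3 largest offsets the cohesin lists differed among themselves, with narrow calls in some and broad calls in others. On chromosome 1 from 156945274 to 156945620 the summits were 1167 bp apart and the 6 cohesin summits spread over 1512 bp, and SMC1 in BORIS cells was at percentile 0.47 against 82.3 in empty-vector cells. On chromosome 18 from 24363472 to 24363689 the offset was 1164.5 bp and the spread 1133 bp. On chromosome 10 from 17268682 to 17269225 these values were 1020.5 and 1186 bp, and in empty-vector cells the RAD21 region was 117 bp wide and the SMC1 region 1595 bp. Here the lists put the cohesin summit at different places, so the offset is poorly defined.

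The regions were narrow, and their width followed their strength. The median width was 258 bp (95% interval 253 to 261), with quartiles of 211 and 330 bp and a maximum of 875 bp, on chromosome 6 from 88396292 to 88397166. Shared mutant regions at cohesin sites had a median of 340 bp and mutant-only regions away from cohesin 241 bp. Within the mutant list the median rose from 236 bp in the weakest quintile to 326 bp in the strongest. In each quintile it lay between the other 2 classes, for example at 263 bp against 300 bp for shared and 238 bp for cohesin-free regions in the third quintile. The offset changed less with strength, from 84 bp in the weakest to 80.5 bp in the fourth quintile, and the 67 bp of the strongest quintile rest on 83 regions. Shared mutant regions at cohesin sites had a median offset of 97.5 bp in that quintile, from 615 regions. Cohesin regions at these places were wider than the Snf2h regions, with medians of 382 bp (RAD21 in BORIS cells) to 449 bp (SMC3 in BORIS cells).

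**Figure D4:**
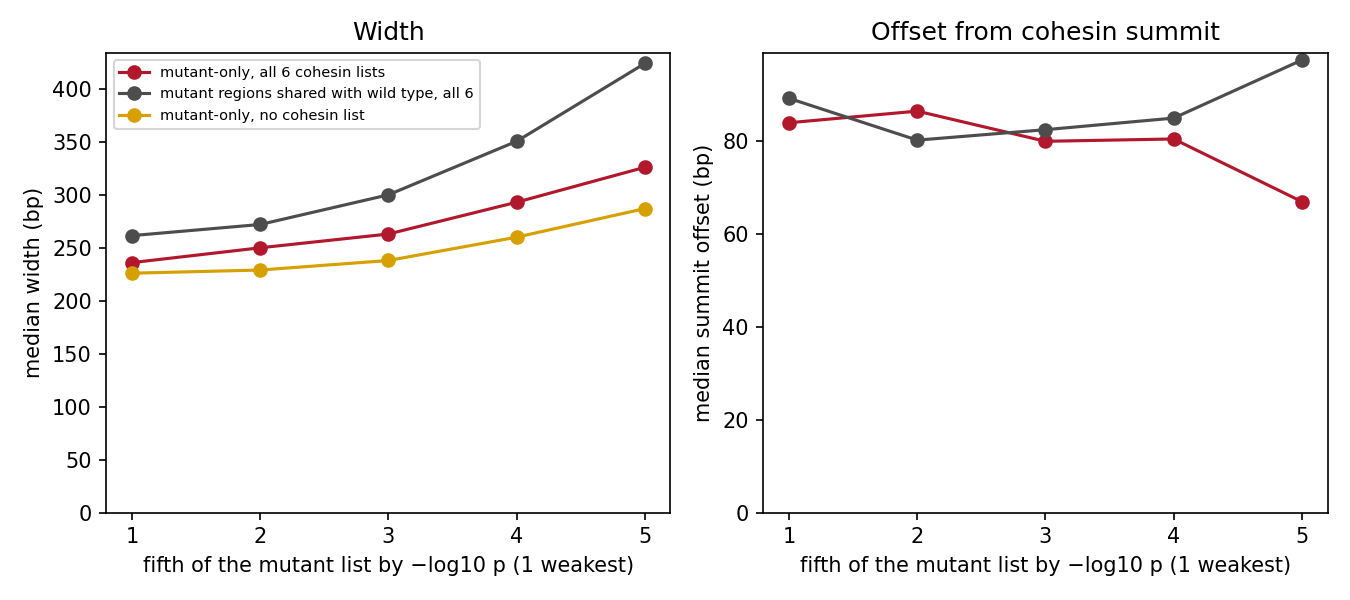
Median width (left, in bp) and median distance between Snf2h and cohesin summits (right, in bp) by quintile of the mutant Snf2h list ordered by −log10 p, for mutant-only regions on all 6 cohesin lists (red), shared mutant regions on all 6 lists (grey) and mutant-only regions on no cohesin list (yellow, left only). Widths of mutant-only regions at cohesin sites rise from 236 to 326 bp and lie between the other 2 classes in each quintile.

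Most regions had no wild-type Snf2h region near. The median distance to the closest one, edge to edge, was 20896.5 bp (95% interval 19466 to 22260), and 29.6% had one within 10000 bp and 89.6% within 100000 bp. Mutant-only regions away from cohesin had a median of 20843 bp (20038 to 21701), an interval that lies within that of the regions on cohesin sites. The closest wild-type region was itself on all 6 cohesin lists in 27.9% (26.2 to 29.6) of cases, against 21.5% (20.7 to 22.4) for cohesin-free mutant-only regions and 23.2% of all wild-type regions.

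Wild-type regions close by were about as frequent as for mutant-only regions away from cohesin. Of the 2738 regions, 252 (9.20%, 8.15 to 10.3) had a wild-type region within 1000 bp, against 9.61% (8.99 to 10.3) of the cohesin-free ones. In 109 (3.98%, 3.28 to 4.78) the same cohesin site also held a wild-type region, and in 85 of the 1809 wild-type-only regions (4.70%, 3.77 to 5.78) it held a mutant region. The rule, under which the regions share no base, limits both counts. When an overlap of 50% of the shorter region was asked for on both the wild-type and the cohesin side, which left 2296 regions, the first share was 7.06%. In the 109 the gap was a median of 158 bp and the summits were a median of 445 bp apart, and in 66 (60.6%, 50.7 to 69.8) the summits of the 2 lines lay on opposite sides of the cohesin summit. Separately, 38 sites held 2 mutant-only regions each, with summits a median of 489 bp apart. In 32 (84.2%, 68.7 to 94.0) these lay on opposite sides of the cohesin summit, here the midpoint of the cohesin summits of the 2 regions. Each region's cohesin summit comes from the summits nearest to it, and the 2 regions share no base. Opposite sides are thus favoured by construction, and no conclusion is drawn from this share.

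The rule's edges show how close the calls are. The region nearest to wild type, on chromosome 15 from 89204316 to 89204655 (fold 3.52, pileup 28), touches a wild-type region of fold 3.68 that ends at 89204315, with no shared base. The next, on chromosome 6 from 99435970 to 99436173 (fold 2.72), is 3 bp from a wild-type region of fold 2.57. Just outside the rule, a region on chromosome 14 from 121778731 to 121778998 (fold 2.73) shares 1 base with a wild-type region of fold 2.74, and a region on chromosome 2 from 38829570 to 38829830 (fold 3.18) shares 2 bases with one of fold 3.50. In the other direction, the region farthest from wild type, on chromosome 7 from 59134701 to 59134958 (fold 3.78, pileup 14), was 2036 kb away, and one on chromosome 6 from 6905771 to 6906045 (fold 4.00, pileup 17) was 1343 kb away. Their lowest cohesin percentiles were 35.9 and 36.4, below the lower quartile of 38.9. Over all 2738 regions, however, the lowest cohesin percentile and the distance to wild type had a Spearman rho of −0.0071.

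Regions in 5 of the 6 lists were left out by the cohesin side of the rule. There were 423 of them among mutant-only regions. The strongest 2 lacked a RAD21 call in BORIS cells. They lay on chromosome 8 from 90641898 to 90642512, with a Snf2h fold of 6.71 and a RAD21 fold of 19.1 in empty-vector cells, and on chromosome 15 from 57525682 to 57526012, with a Snf2h fold of 5.85 and a RAD21 fold of 6.42.

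**Figure D5:**
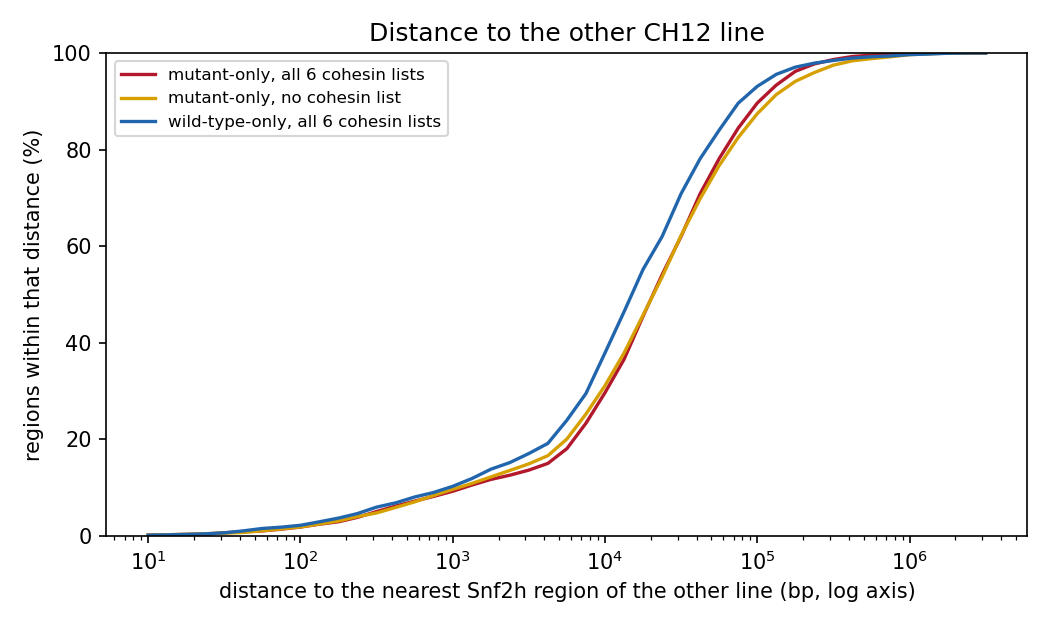
Share of regions (in %) with a Snf2h region of the other CH12 line within a given distance (bp, log axis), for mutant-only regions on all 6 cohesin lists (red), mutant-only regions on no cohesin list (yellow) and wild-type-only regions on all 6 lists (blue). The red and yellow curves run together, with 29.6% and 31.1% within 10000 bp, and the blue curve, measured to the longer mutant list, is higher at 37.9%.

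Cohesin ranked higher in BORIS cells at some of these places and lower at others, with medians near 0. From empty-vector to BORIS cells the median shift in percentile was −0.25 for SMC1 (95% interval −0.52 to −0.07), −0.32 for RAD21 (−0.49 to −0.12) and 0.67 for SMC3 (0.46 to 0.92). The quartiles were −5.25 and 3.37 for SMC1, −5.07 and 3.37 for RAD21, and −2.47 and 4.83 for SMC3, and single regions named above moved further. With all 3 antibodies, 708 regions (25.9%) ranked higher in BORIS cells and 691 (25.2%) ranked lower. These 2 counts were made for the mutant-only regions alone and are not set against other cohesin sites. By single antibody, 47.0% (SMC1), 46.5% (RAD21) and 58.0% (SMC3) ranked higher in BORIS cells. The shares were 49.4%, 49.6% and 58.1% where both CH12 lines had Snf2h, and 42.2%, 45.8% and 51.7% at cohesin sites without Snf2h. Where both CH12 lines had Snf2h the median shifts were −0.04, −0.06 and 0.63 in the same order, and where only wild type had it −0.56, −0.24 and 0.32. Cohesin sites without any Snf2h region, which ranked lower on the whole, had shifts of −1.40, −0.72 and 0.21. The 100 regions on chromosome 14 shifted by −8.05, −6.27 and −6.16 and the 194 on chromosome 4 by 2.39, 1.97 and 2.09. Chromosome 14 had the most negative shift and chromosome 4 the most positive for SMC1 and RAD21, while for SMC3 the 172 regions on chromosome 5 shifted most upward, by 3.37. Shifts by chromosome were computed for the mutant-only regions alone. Whether other cohesin regions of these chromosomes shifted alike was not tested, so the shifts are not shown to be particular to this set.

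The regions were spread over all 19 autosomes, from 75 on chromosome 18 to 249 on chromosome 11. As a share of a chromosome's mutant-only regions they ran from 16.2% (13.4 to 19.3) on chromosome 14 to 25.5% (22.0 to 29.2) on chromosome 3. As a share of the cohesin sites called in all 6 lists they ran from 4.26% (3.37 to 5.31) on chromosome 16 to 6.72% (5.50 to 8.11) on chromosome 14. Chromosome 14 was thus lowest by the first measure and highest by the second, and it held the fewest such cohesin sites, 1488. The median offset was between 72.5 bp (chromosome 12) and 94.5 bp (chromosome 10).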

How the data were processed

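The series held 30 samples, of which 8 with peak lists were analysed and 22 were not analysed here. Each list is 1 sample. Names of Snf2h regions contain the tag Rep12, whose meaning is not stated, so a list may hold 1 library or pooled replicates. The authors deposited regions in the 10-column narrowPeak layout: a score that is the whole part of 10 times −log10 q (other in 3 and 5 regions of 2 lists), a fold (a ratio of summit pileup to local background), −log10 p and −log10 q of the summit, and the summit position. The submitters' processing notes name MACS2, Bowtie2, Bowtie, SAMtools, deepTools 3.5.0 and the builds mm9 and hg19 with no roles; the control and filters are not given in the sources used here. Chromosome 1 positions reach 197182423. No genome of this build was used, so no region was given a gene or sequence, and the planned motif counts were not run.

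Overlaps, distances and offsets were computed with Python 3.11.15, numpy 2.4.6, pandas 2.3.3 and scipy 1.17.1, on chromosomes 1 to 19, with coordinates printed from 1. Percentiles are ranks of −log10 p within a list. Scores were not used. The fold and −log10 of each region were used as the authors deposited them. Pileups are the whole numbers that fit fold and −log10 p as a Poisson tail, found for 100% of the 2738 regions within 0.001. Library depth is unknown; the lowest background rate of 500 summits per list, over the narrowest width, stands beside the lists. Shares have exact (Clopper-Pearson) 95% binomial intervals and medians have intervals from binomial order statistics. Both cover counting error only, and nearby regions are not independent. The code was tested on simulated lists.

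Named regions were, among those at most 3 kb wide, the 6 with the highest Snf2h percentile, the 3 with the highest lowest cohesin percentile, the 3 with the largest offset, the 3 strongest with an offset of at most 10 bp, the 2 nearest to and 2 farthest from wild type, the widest, and regions just outside the rule. The regions and this rule were chosen with earlier results of these data known. Alternatives were other thresholds, list lengths, overlaps and sets of cohesin lists.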

Additional observations from a re-analysis of the deposited data

How the results depend on the processing

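Each of 6 results was recomputed under 9 alternatives, and under 1 more chosen after seeing the data, in which the cohesin summits lie within 50 bp. Of these values 37 stayed (a count within 1.5 times, other values within the interval of the reported one) and 23 moved. A −log10 q of at least 10 in the mutant list left 101 regions, with a median offset of 72.5 bp, a width of 321 bp, a lowest cohesin percentile of 68.0, a distance to wild type of 15569 bp and 2.97% with a wild-type region on the same cohesin site. Lists of equal length gave 1564 regions, a width of 272.5 bp and a percentile of 69.6. With no wild-type region within 1 kb the distance was 24251 bp and the share on one site 0.0805%, both by construction. An overlap of 50%, with wild type and with cohesin, gave an offset of 71.5 bp, a percentile of 77.2 and a share of 7.06%. Cohesin lists held to a −log10 q of 10 or more gave a percentile of 82.3, by construction. With at least 1 cohesin list there were 4659 regions, the offset was 90 bp and the percentile 38.3. With cohesin summits within 50 bp there were 1706 regions, an offset of 75.5 bp, a width of 251 bp, a percentile of 84.0 and a share of 2.87%. The ratio of mutant-only to wild-type-only regions, with alternatives also chosen after seeing the data, turned from 1.51 to 0.722 at cohesin sites with lists of equal length and went from 2.19 to 1.12 in no cohesin list, while a −log10 q of 10 or more gave 2.81 and 8.58. Where no reason is named, the cause was not tested. Leaving out the lists of any 1 cohesin antibody moved none of the first 6 results and gave 2802 to 3136 regions. Motif alternatives were not run. No paired analysis was possible because there was a single list per group. At a median pileup of 20 fragments, absence from the wild-type list does not show absence of Snf2h.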

Other observations

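The X chromosome was outside the rule. Under the same rule it held 23 regions, 11.8% (95% interval 7.63 to 17.2) of its 195 mutant-only regions. Their median offset was 80.5 bp. Of the 2738 autosomal regions, 2 had a fold under 2. These were 2 regions on chromosome 9, from 3032131 to 3032774 and from 3023483 to 3023702, chosen here after their values were seen.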
